A study of Mus musculus with 6 samples.

Results

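Type I interferon signaling and antigen presentation were examined in the hypothalamus of *Fmr1* KO female mice through a list of 30 genes. The members were listed by name, as factors, sensors, receptors and effectors of this response, with earlier results of these data known. Of the 30, 28 had a probe in both deposited tables, among 787 probes in all, and *Bst2* and *Cd274* were not analysed here. Expression was counted with the nCounter assay, which reads fluorescent barcodes of hybridized probes 1 molecule at a time and needs no amplification step. Hypothalami came from 3 *Fmr1* KO and 3 WT mice, all of them females in diestrus at 8 weeks of age. The KO line is FVB.129P2-Fmr1tm1Cgr/J, in which *Fmr1* is inactivated in every cell, and the WT mice are its congenic controls. For each mouse 1 lane was run, from 50 ng of RNA. The genotype labels were not checked through the targeted gene, since *Fmr1* itself was not analysed here. *Hcrt*, which encodes the hypothalamic peptide orexin and served as a check of the labelled tissue, had raw counts of 220 to 1229 in the 6 lanes.

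Interferons are secreted by cells that detect foreign or misplaced nucleic acid, and they act through receptors on neighbouring cells to switch on antiviral and antigen presentation genes. The interferon regulatory factors are transcription factors that act both before and after that signal. In the brain, microglia, endothelial cells and astrocytes can all take part in the response, which is kept low in healthy tissue.

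Total raw counts were 165514 to 339934 in KO lanes and 261019 to 303764 in WT lanes, and the lowest was that of KO replicate 2. Each raw count was multiplied by the authors' lane factor to give the normalized counts below, and that factor was 0.767, 1.72 and 1.13 in KO replicates 1, 2 and 3 and 0.922 to 0.997 in WT mice. Testing required more than 20 raw counts in 3 or more of the 6 lanes, a count minimum that 601 probes and 16 of the 28 members passed. KO mice were in lanes 4 to 6 and WT mice in lanes 1 to 3, so genotype cannot be told apart from lane position. *Prl* (prolactin), a hormone gene of the pituitary, had 4 to 9 raw counts in KO mice, against 123, 6 and 1626 in WT replicates 1, 2 and 3. In bulk tissue, fewer cells of a type and less RNA per cell cannot be told apart.

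None of the 16 tested members differed between KO and WT mice in edgeR's quasi-likelihood test at a Benjamini-Hochberg adjusted p under 0.05, which 0.832% of the 601 tested probes passed. At an unadjusted p under 0.05 none was higher and none was lower, against 5.66% and 2.83% of all tested probes. DESeq2 and limma on normalized counts also called none at either threshold. The smallest adjusted p was that of *Irf1*, at 0.707 from edgeR. Fitted log2 fold changes of KO over WT lay between -0.42 and 0.31, with 11 of 16 below 0 and a median of -0.07. The median was -0.15 without KO replicate 2 and -0.03 without WT replicate 1, the ends of its range with single mice left out, and -0.12 with total-count scaling. Over all tested probes 47.3% were below 0, and the median was 0.01. This median over all tested probes was -0.03 without KO replicate 2, 0.01 without WT replicate 1 and -0.05 with total-count scaling. In 3 tested members, *Irf1*, *Psmb8* and *Ifi30*, every KO mouse was below every WT mouse, and in none was every KO mouse above every WT mouse. Over all tested probes the groups did not overlap in 6.82%, lower in KO mice, and in another 6.82%, higher in KO mice. The study picked *Irf1*, *Psmb8*, *Ifi30* and *Ifnar1* on these samples, so their direction is not independent evidence.

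**Figure D1:**
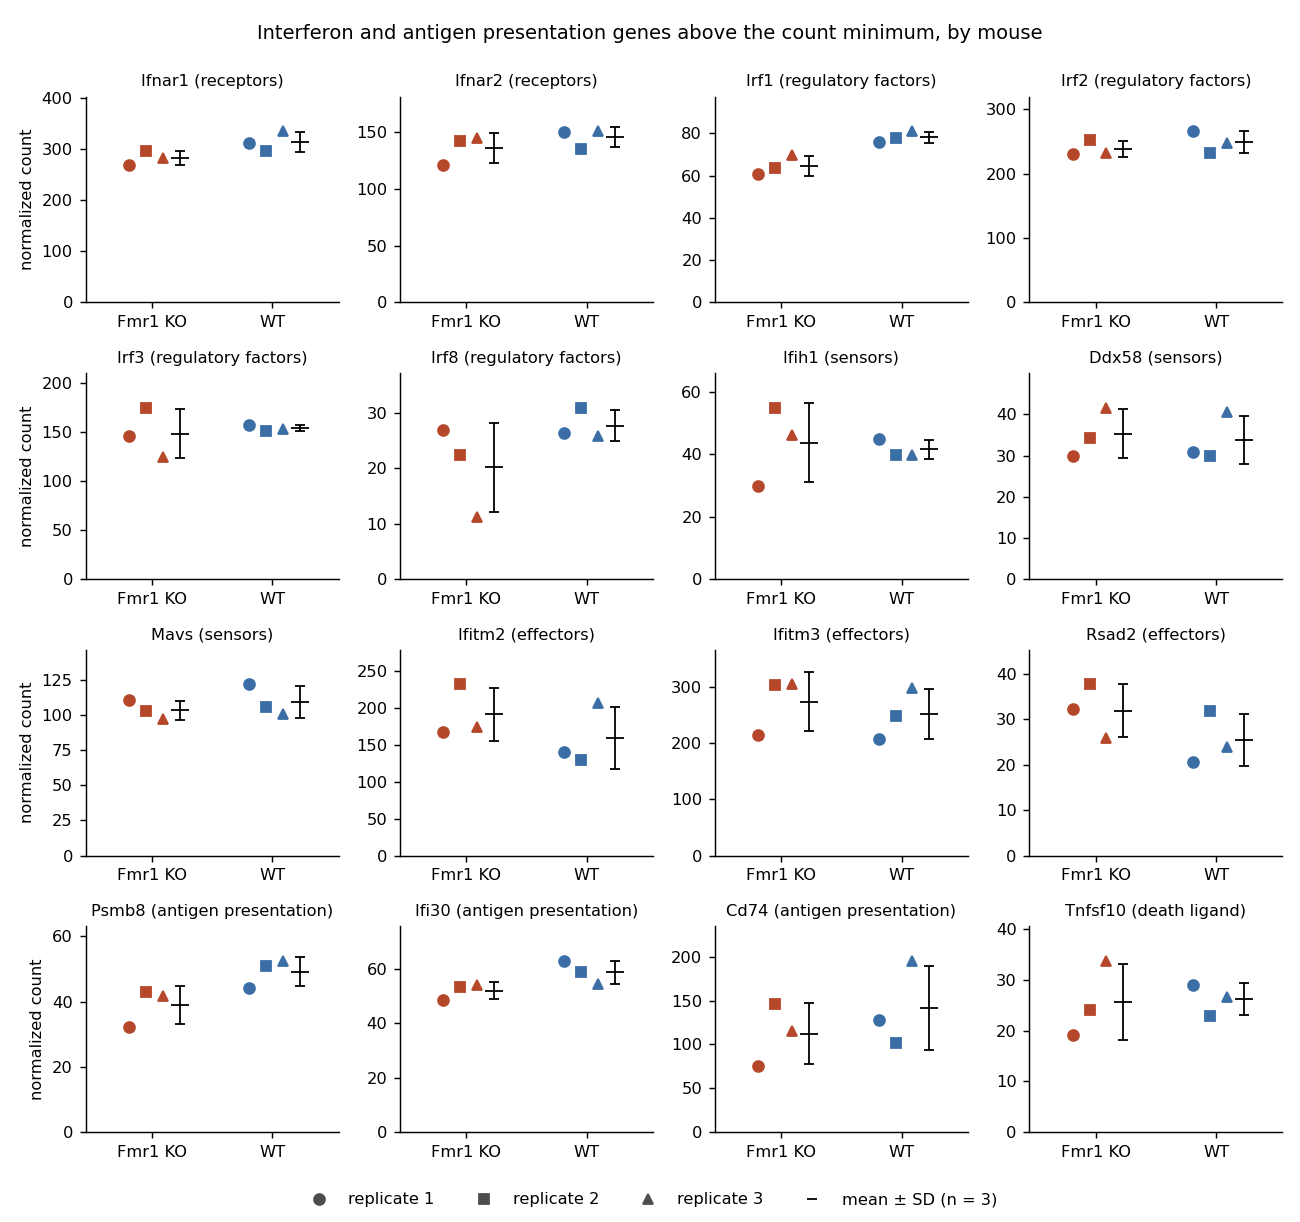
Normalized counts (raw count times the lane factor, vertical axis from 0) of the 16 tested genes in each of 3 *Fmr1* KO and 3 WT mice; marker shapes give the replicate number and black bars the mean ± SD (n = 3 per group). The groups overlap in every panel other than those of *Irf1*, *Psmb8* and *Ifi30*, in which the KO mice lie lower.

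The 95% interval of the log2 fold change included 0 for all 16 tested members. It lay within 2-fold in either direction for 15 of them and within 1.5-fold for 9 of them. The exception at 2-fold was *Irf8*, whose interval ran from -1.11 to 0.27. With 3 mice per group at this depth, differences inside these intervals cannot be told from none. The intervals are not limits of detection at the adjusted threshold.

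**Figure D2:**
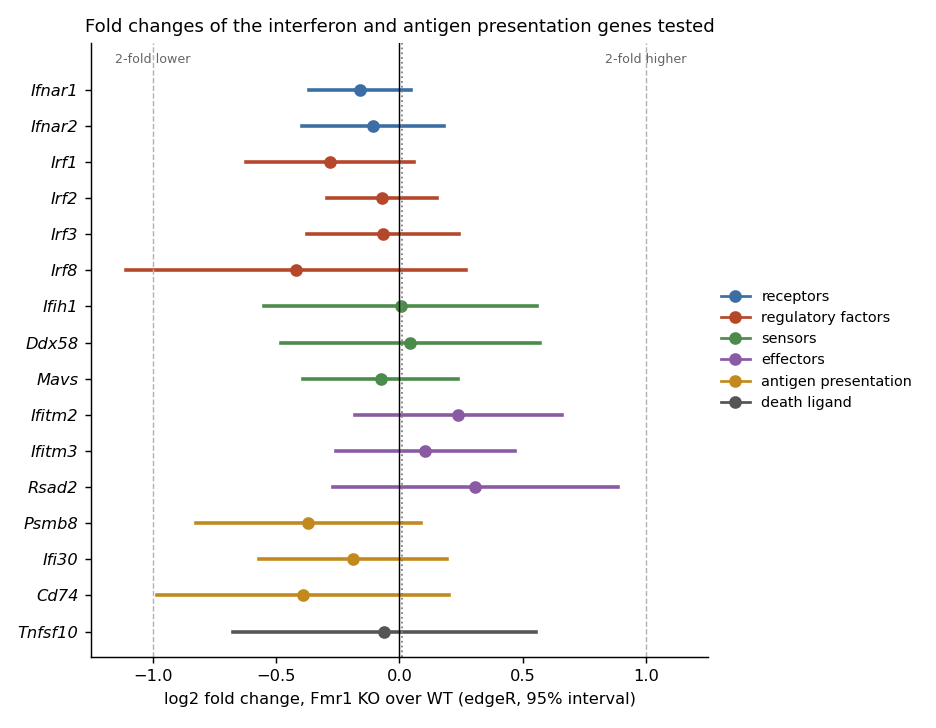
Log2 fold changes of KO over WT from edgeR (points) with 95% intervals (lines) for the 16 tested genes, coloured by role; the dotted line is the median of all tested probes (0.01) and dashed lines mark a 2-fold difference. Every interval includes 0, and that of *Irf8* alone reaches past 2-fold.

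To show what the members share in sequence, 250 bases before each gene's start were searched in the RefSeq promoter table (GRCm38.p6) for 2 elements. The interferon-stimulated response element, at which interferon regulatory factors and the type I interferon complex can bind, was searched as GAAANNGAAA on both strands. The gamma-activated site, an element of promoters that respond to interferon gamma, was searched as TTCNNNGAA, which reads the same on both strands. Of the 28 members, 24 were matched by symbol, and *Tmem173*, *Zbp1*, *Cd74* and *Siglec1* were not. The first element was found in 7 of the 24 genes (*Irf2*, *Ifitm2*, *Rsad2*, *Oas1g*, *Slfn8*, *H2-T23* and *Cxcl10*) and in 2.98% of all 32851 promoters of the table. The second was found in 5 of the 24 (*Ifnar2*, *Irf1*, *Irf2*, *Irf8* and *Psmb8*) and in 7.02% of all promoters. A gene can have several promoters in the table, so these shares are descriptions only. Of the 7 genes with the first element, *Irf2*, *Ifitm2* and *Rsad2* passed the count minimum. All 5 genes with the second did so.

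The 150 bases before the start are shown 5′ to 3′ on the gene's strand for the 3 genes whose groups did not overlap (*Irf1*, *Psmb8* and *Ifi30*), for the 2 tested genes with the highest log2 fold changes (*Rsad2* and *Ifitm2*), and for *Oas1g*, a gene of the same kind that stayed under the count minimum. Capitals mark matches to either element, and in *Oas1g* 2 matches to the first overlap. Where a gene has several promoters, the first with a match in these 150 bases was taken, and for *Ifi30* the first listed. The windows other than that of *Ifi30* were thus chosen to hold a match. A match is a description of the letters and not evidence of binding. The windows are chr11:53769864-53770013 (plus strand) for *Irf1*, chr17:34198045-34198194 (plus strand) for *Psmb8*, chr8:70766664-70766813 (minus strand) for *Ifi30*, chr12:26456453-26456602 (minus strand) for *Rsad2*, chr7:140955962-140956111 (minus strand) for *Ifitm2* and chr5:120887614-120887763 (minus strand) for *Oas1g*.
*Irf1*: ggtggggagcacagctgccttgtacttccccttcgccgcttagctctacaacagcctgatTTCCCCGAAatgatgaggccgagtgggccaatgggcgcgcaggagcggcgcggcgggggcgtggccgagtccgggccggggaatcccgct
*Psmb8*: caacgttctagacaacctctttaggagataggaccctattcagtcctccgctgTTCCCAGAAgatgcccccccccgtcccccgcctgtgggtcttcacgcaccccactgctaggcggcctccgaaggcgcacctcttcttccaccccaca
*Ifi30*: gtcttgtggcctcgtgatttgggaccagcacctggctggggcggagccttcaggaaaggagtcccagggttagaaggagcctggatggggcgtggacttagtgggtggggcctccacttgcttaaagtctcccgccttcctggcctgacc
*Rsad2*: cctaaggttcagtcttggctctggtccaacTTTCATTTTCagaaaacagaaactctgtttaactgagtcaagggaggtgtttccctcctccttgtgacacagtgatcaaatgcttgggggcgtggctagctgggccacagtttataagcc
*Ifitm2*: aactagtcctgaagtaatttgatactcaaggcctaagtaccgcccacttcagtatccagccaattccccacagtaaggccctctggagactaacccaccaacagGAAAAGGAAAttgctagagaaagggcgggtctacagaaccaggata
*Oas1g*: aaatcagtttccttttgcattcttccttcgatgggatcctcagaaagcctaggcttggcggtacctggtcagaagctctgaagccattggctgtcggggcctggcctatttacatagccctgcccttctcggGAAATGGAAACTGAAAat

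Both subunits of the type I interferon receptor were measured in every lane, and neither passed the adjusted threshold. *Ifnar1* had 268, 295 and 281 normalized counts in KO replicates 1, 2 and 3, against 310.5, 295 and 335 in WT replicates 1, 2 and 3. The highest KO mouse and the lowest WT mouse had nearly the same value, so the groups met at their edges. The means were 282 ± 13.5 in KO and 313 ± 19.97 in WT mice (SD, n = 3 each), and *Ifnar1* stood at -0.16 on the log2 scale, KO over WT (standard error, SE, 0.09, edgeR adjusted p = 0.719). *Ifnar2*, the partner subunit, had 136 ± 13.2 normalized counts in KO and 146 ± 8.73 in WT mice (SD, n = 3 each), with a log2 fold change of -0.11 (SE 0.13, edgeR adjusted p = 0.907). Its KO mice ranged from 121 to 145 and its WT mice from 136 to 151, so the groups overlapped.

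Of the 6 interferon regulatory factors, *Irf1*, *Irf2*, *Irf3* and *Irf8* were tested, all 4 had a log2 fold change below 0, and none passed. *Irf1*, a factor induced by interferon that activates antigen presentation genes, had 60.6, 63.5 and 69.8 normalized counts in KO replicates 1, 2 and 3, against 76.0, 77.7 and 81.1 in WT replicates 1, 2 and 3. Every KO mouse was below every WT mouse, with means of 64.6 ± 4.72 in KO and 78.3 ± 2.61 in WT mice (SD, n = 3 each). The log2 fold change of *Irf1* was -0.28 (SE 0.15, 95% interval -0.62 to 0.06, edgeR adjusted p = 0.707). Its raw counts were 79, 37 and 62 in the KO lanes and 81, 78 and 88 in the WT lanes, so KO replicate 2 contributed the fewest. With the methods' t-test on log2 values, *Irf1* had an unadjusted p of 0.0137 and an adjusted p of 0.60. That test called 0 probes at an adjusted p under 0.05. The share of all tested probes under 0.05 before adjustment in that test is not given here, so the unadjusted value is not read as a result about *Irf1*.

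*Irf8*, which microglia and other myeloid cells need for their development, had 26.8, 22.3 and 11.3 normalized counts in KO replicates 1, 2 and 3, against 26.3, 30.9 and 25.8 in WT replicates 1, 2 and 3. KO replicate 1 lay among the WT mice and KO replicate 3 was below all of them. The log2 fold change of *Irf8* was -0.42 (SE 0.31, edgeR adjusted p = 0.766), the lowest of the 16, and it rested on raw counts of 10 and 13 in 2 of the KO lanes. It was -0.80 without KO replicate 1 and -0.13 without KO replicate 3. *Irf8* was chosen for this detail after its values were seen. Summed over 10 microglia markers, *Itgam*, *P2ry12*, *Tmem119* and *Cx3cr1* among them, normalized counts were 1103, 1232 and 1161 in KO mice and 1156, 1156 and 1313 in WT mice. Of these 10 markers, 7 had a log2 fold change below 0, the 4 named among them, and *Fcrls* (0.49), *Olfml3* (0.25) and *Csf1r* (0.05) were above 0. None of the 10 passed at an unadjusted p under 0.05, and their median was -0.07. KO replicate 3, the lowest for *Irf8*, was above KO replicate 1 in this sum. Of the other cell markers, all 6 oligodendrocyte markers were higher and 2 of 3 astrocyte markers lower in KO mice (edgeR, p under 0.05 before adjustment), 1 of them (an oligodendrocyte marker) at an adjusted p under 0.05. The part of these cell types in the values of the interferon genes was not tested.

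*Irf2*, which can oppose *Irf1* at shared sites, had 238 ± 12.4 normalized counts in KO and 249 ± 17.1 in WT mice (SD, n = 3 each). *Irf3*, which is activated by nucleic acid sensors, had 149 ± 25.2 in KO and 154 ± 3.17 in WT mice (SD, n = 3 each). Both had a log2 fold change of -0.07, with adjusted p of 0.925 for *Irf2* and 0.934 for *Irf3* from edgeR. The WT mice spanned 151 to 158 normalized counts of *Irf3*, whereas the KO mice spanned 125 to 175 and so lay on both sides. *Irf7*, which amplifies the type I response, had raw counts of 28, 15 and 20 in KO mice and 20, 22 and 20 in WT mice, and *Irf4*, a factor of lymphocytes, had 13, 14 and 7 in KO mice and 12, 12 and 9 in WT mice. Both were under the count minimum and were not tested.

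Among the nucleic acid sensors and their adaptors, the RNA helicase genes *Ifih1* and *Ddx58*, which encode MDA5 and RIG-I, and their shared adaptor gene *Mavs* were tested. Their log2 fold changes were 0.01, 0.04 and -0.08, with adjusted p from 0.934 to 0.992 from edgeR. *Mavs*, with the smallest p of the 3, had 110.4, 103 and 96.8 normalized counts in KO replicates 1, 2 and 3, against 122, 106 and 100.5 in WT replicates 1, 2 and 3, and the groups overlapped. *Ifih1* had 29.9, 54.9 and 46.2 normalized counts in KO replicates 1, 2 and 3, against 45.0, 39.9 and 39.6 in WT replicates 1, 2 and 3. The KO mice of *Ifih1* lay on both sides of the WT mice, with an SD of 12.7 in KO and 3.05 in WT mice. *Ddx58* averaged 35.3 ± 5.94 normalized counts in KO and 33.8 ± 5.87 in WT mice (SD, n = 3 each). The signs of *Ifih1* and *Ddx58* turned under other scalings and without single mice, as did that of *Mavs* without WT replicate 1, and with single mice left out *Ifih1* ranged from -0.17 to 0.26 and *Ddx58* from -0.10 to 0.20.

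The sensors of DNA stayed under the count minimum. *Tmem173*, which encodes the adaptor STING and is named *Sting1* in RefSeq, had raw counts of 19, 13 and 16 in KO mice and 14, 14 and 21 in WT mice. *Mb21d1*, which encodes the DNA sensor cGAS and is named *Cgas* in RefSeq, had 9, 14 and 10 in KO mice and 9, 5 and 11 in WT mice. *Zbp1*, a sensor of Z-form nucleic acid that can trigger cell death, had 15, 15 and 7 raw counts in KO mice and 1, 6 and 7 in WT mice. The 79 probes that were lowest in these same lanes had a mean raw count of 5.96 to 9.18 in KO lanes and 7.44 to 8.37 in WT lanes. Most *Zbp1* values were at or near that level, which is not a background measured with control probes. In normalized counts *Zbp1* had 11.5, 25.7 and 7.88 in KO replicates 1, 2 and 3, against 0.94, 5.98 and 6.45 in WT replicates 1, 2 and 3, so every KO mouse was above every WT mouse. In raw counts KO replicate 3 and WT replicate 3 were equal. When every probe was fitted without a count minimum, *Zbp1* had a log2 fold change of 1.62 (SE 0.64). Its unadjusted p was 0.0267 and its adjusted p 0.554 from edgeR. It was the 1 member of the 28 under 0.05 before adjustment, and the share of all 787 probes under 0.05 is not given here. In normalized counts KO replicate 2, the highest mouse for *Zbp1*, was also the highest for 82.8% of all 186 probes under the minimum.

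The antiviral effector genes that passed the count minimum, *Ifitm2*, *Ifitm3* and *Rsad2*, all had log2 fold changes above 0, and none passed. *Ifitm2*, one of the membrane proteins that hinder virus entry, had 167, 232 and 173 normalized counts in KO replicates 1, 2 and 3, against 141, 129.6 and 206 in WT replicates 1, 2 and 3. WT replicate 3 lay above 2 of the KO mice, so the groups overlapped, with means of 191 ± 35.6 in KO and 159 ± 41.6 in WT mice (SD, n = 3 each). The log2 fold change of *Ifitm2* was 0.24 (SE 0.19, edgeR adjusted p = 0.787). It was 0.095 without KO replicate 2 and 0.11 without WT replicate 2. Without WT replicate 3 it was 0.47, with an unadjusted p of 0.0164 and an adjusted p of 0.308 from edgeR, the smallest adjusted p of any member under the alternatives tried. *Ifitm3*, a close relative of *Ifitm2*, had 214, 304 and 305 normalized counts in KO replicates 1, 2 and 3, against 208, 249 and 299 in WT replicates 1, 2 and 3. Its groups covered nearly the same range, and the log2 fold change was 0.10 (SE 0.16, edgeR adjusted p = 0.933). The 2 genes are similar in sequence, and how far their probes tell them apart was not tested.

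*Rsad2*, which encodes the antiviral enzyme viperin, had 32.2, 37.8 and 25.9 normalized counts in KO replicates 1, 2 and 3, against 20.6, 31.9 and 24.0 in WT replicates 1, 2 and 3. WT replicate 2 lay among the KO mice. Its log2 fold change of 0.31 (SE 0.26, edgeR adjusted p = 0.803) topped the 16 members, and the groups overlapped. It was 0.18 without WT replicate 1 and 0.50 without WT replicate 2. The effectors *Oas1g* (an oligoadenylate synthetase), *Slfn8* (a Schlafen family member) and *Epsti1* were under the count minimum. *Oas1g* had raw counts of 14, 9 and 5 in KO mice and 10, 8 and 15 in WT mice. *Slfn8* had 15, 8 and 6 in KO mice and 10, 11 and 3 in WT mice, and *Epsti1* had 9, 14 and 11 in KO mice and 10, 12 and 8 in WT mice. No order between the genotypes can be read from counts of this size.

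The antigen processing and presentation genes *Psmb8*, *Ifi30* and *Cd74* all had log2 fold changes below 0, and none passed. *Psmb8*, a catalytic subunit of the immunoproteasome that cuts peptides for class I molecules, had 32.2, 42.9 and 41.7 normalized counts in KO replicates 1, 2 and 3, against 44.1, 50.8 and 52.5 in WT replicates 1, 2 and 3. Every KO mouse was below every WT mouse, although KO replicate 2 and WT replicate 1 were close. The means of *Psmb8* were 38.9 ± 5.86 in KO and 49.2 ± 4.47 in WT mice (SD, n = 3 each), and the log2 fold change was -0.37 (SE 0.21, edgeR adjusted p = 0.714). *Ifi30*, a lysosomal thiol reductase that prepares antigens for class II molecules, had 48.3, 53.2 and 54.0 normalized counts in KO replicates 1, 2 and 3, against 62.8, 58.8 and 54.4 in WT replicates 1, 2 and 3. The separation of *Ifi30* rested on the small step between KO replicate 3 and WT replicate 3. Its means were 51.9 ± 3.11 in KO and 58.7 ± 4.23 in WT mice (SD, n = 3 each), with a log2 fold change of -0.19 (SE 0.17, edgeR adjusted p = 0.840).

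*Cd74*, the invariant chain that guides class II molecules, had 75.9, 146 and 115 normalized counts in KO replicates 1, 2 and 3, against 128, 102 and 195 in WT replicates 1, 2 and 3. WT replicate 3 was the highest and KO replicate 1 the lowest, and the other 4 mice of both genotypes were mixed. The log2 fold change of *Cd74* was -0.39 (SE 0.27, edgeR adjusted p = 0.748). WT replicate 3 was also the lane with 1626 raw counts of *Prl*. It was the highest mouse in the summed microglia, astrocyte and endothelial markers too, but not in the oligodendrocyte or neuron sums. The part of neighbouring tissue or of these cell types in its *Cd74* level was not tested. Without WT replicate 3 the log2 fold change was -0.08 (adjusted p = 0.989 from edgeR), and without WT replicate 2 it was -0.57 (unadjusted p = 0.0463, adjusted p = 0.792 from edgeR). *H2-T23*, a nonclassical class I gene that encodes Qa-1, had raw counts of 19, 21 and 16 in KO mice and 12, 15 and 20 in WT mice, and it was not tested.

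Of the chemokine, death ligand and surface protein genes, *Tnfsf10* alone passed the count minimum. *Tnfsf10*, which encodes the death ligand TRAIL, had 19.2, 24.0 and 33.8 normalized counts in KO replicates 1, 2 and 3, against 29.1, 22.9 and 26.7 in WT replicates 1, 2 and 3. The KO mice lay on both sides of the WT mice, and the log2 fold change was -0.06 (SE 0.28, edgeR adjusted p = 0.988). *Cxcl9* and *Cxcl10*, chemokines induced by interferon that draw in T cells, were under the count minimum, and *Cxcl10* was near the level of the 79 lowest probes. *Cxcl9* had raw counts of 19, 17 and 8 in KO mice and 11, 6 and 15 in WT mice, and *Cxcl10* had 10, 9 and 6 in KO mice and 10, 8 and 3 in WT mice. *Siglec1*, a surface protein of macrophages, had 7, 8 and 8 in KO mice and 16, 7 and 13 in WT mice. None of 12 present markers of T and NK cells, B cells or perivascular macrophages and monocytes passed the count minimum. Raw counts summed over 7 T and NK cell markers were 50, 72 and 59 in KO mice and 68, 50 and 80 in WT mice.

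For the 12 members under the count minimum, the order of the mice differed between raw and scaled counts. Their raw counts lay between 5 and 28 in KO lanes and between 1 and 22 in WT lanes, with medians of 14.5, 14 and 8 in KO replicates 1, 2 and 3 and 10.5, 9.5 and 12 in WT replicates 1, 2 and 3. After scaling, the medians were 11.1, 24.0 and 9.01 in KO replicates 1, 2 and 3 and 9.85, 9.47 and 11.1 in WT replicates 1, 2 and 3. KO replicate 2, with the highest factor, was then the highest mouse for 11 of the 12 genes, as it was for 82.8% of all 186 probes under the minimum. In raw counts it was the highest lane for 4 of the 12. The ratio of mean normalized counts of KO over WT had a median of 1.43 over the 12 genes with every mouse and of 1.08 without KO replicate 2, against 1.24 and 0.941 over all probes under the minimum.

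**Figure D3:**
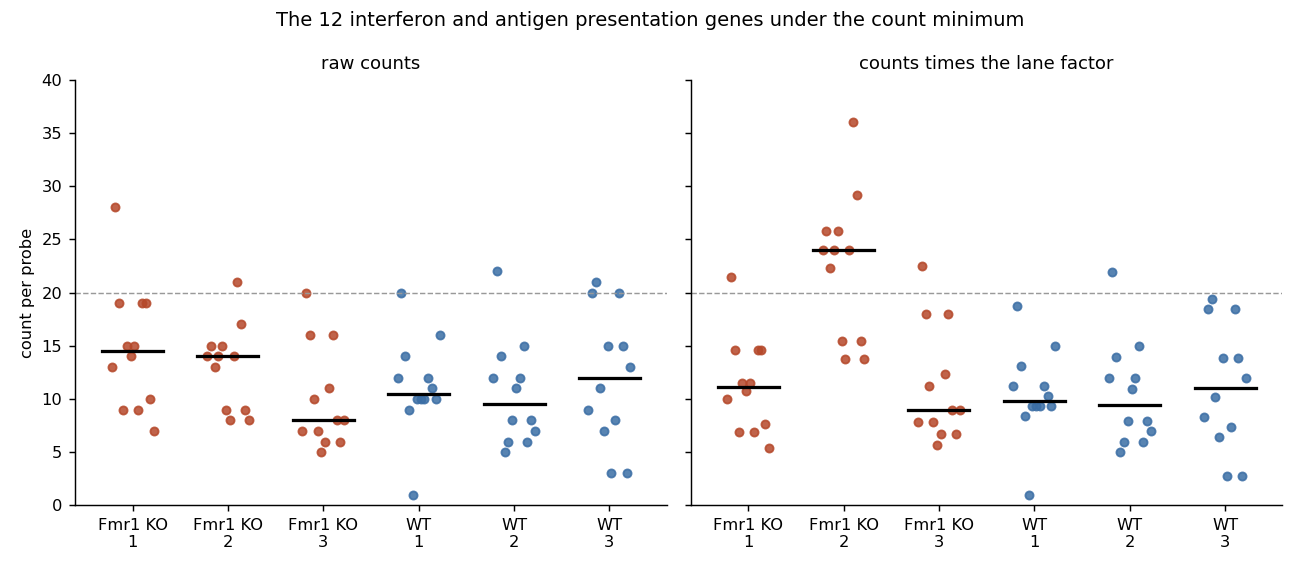
Counts per probe of the 12 genes under the count minimum in each mouse, as raw counts (left) and as counts times the lane factor (right); points are genes, black bars are medians and the dashed line marks 20 counts. The median of KO replicate 2 is 14 in raw counts, below the 14.5 of KO replicate 1. After scaling it is 24.0, above every other mouse.

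The 16 tested members differed in how much they varied between mice of 1 genotype. This was measured as the squared deviation of each raw count from its expectation within the genotype, over that expectation and summed over the mice, divided by 4 degrees of freedom. A value of 1 is the spread that counting error alone gives. It was below 2 for 13 members, with a lowest value of 0.224 for *Irf1* and 0.264 for *Ifi30*, and its median over all tested probes was 2.01. The exceptions were *Cd74* (13.9), *Ifitm3* (9.80) and *Ifitm2* (8.20), and 10.3% of all tested probes were above 8. These 3 genes therefore differed between mice of the same genotype by more than the counting error. Over 6 endothelial markers, *Cldn5* and *Pecam1* among them, summed normalized counts were 629, 754 and 806 in KO replicates 1, 2 and 3 and 726, 625 and 808 in WT replicates 1, 2 and 3. KO replicates 2 and 3 and WT replicate 3 were the 3 highest mice both in this sum and for *Ifitm3*. The same mice were highest for *Ifitm2* and in the summed microglia and oligodendrocyte markers, but not in the astrocyte or neuron sums. This order is therefore not particular to endothelial markers, and the part of any cell type in the *Ifitm3* level was not tested.

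**Figure D4:**
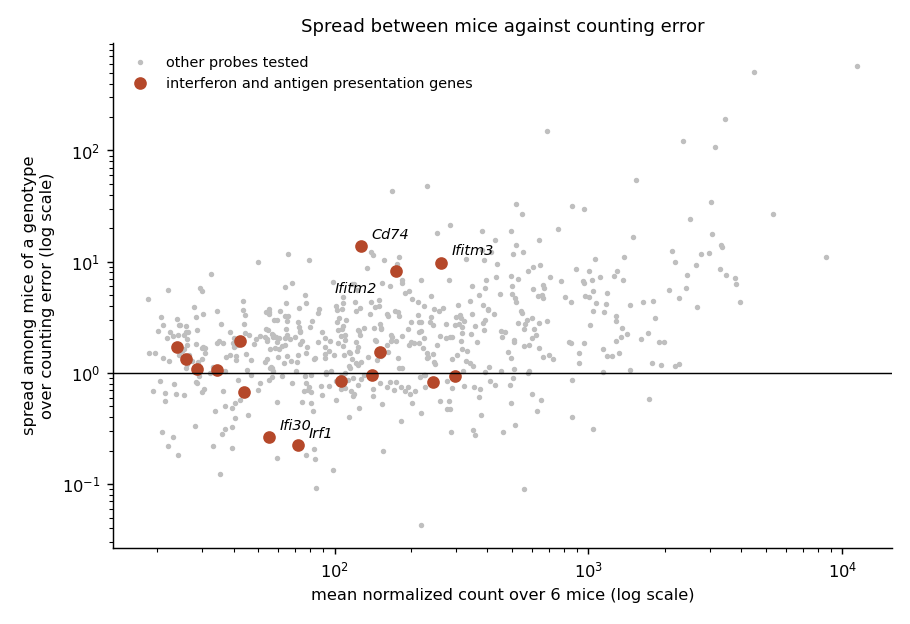
Spread between mice of 1 genotype over counting error (vertical, log scale, 1 marked by the line) against the mean normalized count over 6 mice (horizontal, log scale) for all 601 tested probes; red points are the 16 interferon and antigen presentation genes. *Cd74*, *Ifitm3* and *Ifitm2* stand at 13.9, 9.80 and 8.20, and the other 13 lie below 2.

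By mouse, the median over the 16 members of the log2 ratio to the WT mean was -0.22, -0.004 and -0.11 in KO replicates 1, 2 and 3, against -0.03, -0.05 and 0.04 in WT replicates 1, 2 and 3. The same median over all tested probes was -0.08, 0.12 and 0.03 in the KO mice and -0.01, -0.04 and 0.05 in the WT mice. KO replicate 1 was thus the lowest mouse on both measures. Of the 16 members, 13, 8 and 10 were below their WT mean in KO replicates 1, 2 and 3. In WT replicates 1, 2 and 3 the numbers were 9, 12 and 7, so WT replicate 2 came near KO replicate 1 in this count, though not in its median. In every mouse the median over the members was below that over all tested probes, and by more in each KO mouse than in any WT mouse.

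Other interferon and antigen presentation genes of the panel, from a list of 71 of which 15 had a probe and 9 were tested, gave a like picture. None of the 9 passed at an adjusted or an unadjusted p under 0.05 from edgeR, 7 were below 0, and the median log2 fold change was -0.02. *Ctss*, a lysosomal protease that trims the invariant chain, had 355, 355 and 386 normalized counts in KO replicates 1, 2 and 3, against 387, 391 and 394 in WT replicates 1, 2 and 3. Every KO mouse was below every WT mouse by a small step, with a log2 fold change of -0.10 (SE 0.08, edgeR adjusted p = 0.803), and *Ctss* too is a gene that the study picked from these mice. The 2 genes above 0 were *Socs3*, an inhibitor of cytokine signaling, with 0.27 (SE 0.43), and *Cd40*, a costimulatory receptor, with 0.15 (SE 0.26). *Socs3* had 16.1, 46.3 and 13.5 normalized counts in KO replicates 1, 2 and 3, against 16.9, 16.9 and 22.1 in WT replicates 1, 2 and 3, so that its mean rested on KO replicate 2.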

How the data were processed

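The authors hybridized 50 ng of hypothalamic RNA per mouse to the nCounter Mouse Neuroinflammation Panel with added hypothalamic probes and processed the lanes in nSolver. In the deposited raw table, 787 probes each have 1 count per lane, before any normalization. Its column with the percent of lanes above a threshold, set by the authors, was not used, since its lowest value of 91.67 is not a share of 6 lanes. The authors' value table holds a signal per probe, which is the raw count times 1 factor per lane (7 housekeeping genes, per the methods) with a minimum of 1. The control probes were not used here, and 1 gene of the wider pathway list is not reported here by name.

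Lane factors were recovered as the median ratio of both tables over probes of at least 1000 counts. The counts entered a quasi-likelihood fit (glmQLFit, glmQLFTest) of edgeR 4.0.16 under R 4.3.3, with lane sizes from these factors and genotype as the only term. Standard errors are the size of the log2 fold change over the square root of F. The fit was tested on simulated data. No 2 lanes of a genotype differed by less than the sampling noise (chi-square over its degrees of freedom of at least 2.73). Exact permutation was not used, since its smallest two-sided p for groups of 3 is 0.1.

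Probes were named through RefSeq, 772 by accession and 15 by symbol. The members and gene lists were chosen with earlier results of these data known. Values in every mouse are given for tested members whose groups did not overlap, for the smallest p of each role, and for others chosen after their values were seen. Alternatives were TMM, median-ratio and total-count scaling, the count minimum dropped or replaced by a mean of 50 or more raw counts per lane, DESeq2 1.42.0, limma-trend (version 3.58.1) at pseudocounts of 1 and 10 and on the authors' value table, background subtraction, the methods' t-test, a replicate block and each mouse left out.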

Additional observations from a re-analysis of the deposited data

How the results depend on the processing

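No member passed an adjusted p under 0.05 under any of the 18 alternatives, whose adjusted p for members ranged from 0.308 to 0.9995. Of 282 values of single members under the alternatives, 264 kept their direction and 18, in 6 genes, turned. *Ifih1* (0.01) was -0.013 with TMM, -0.018 with median-ratio size factors, -0.055 with total counts and -0.024 after background subtraction, and *Ddx58* (0.04) was -0.0028 with total counts and -0.042 after background subtraction. With single mice left out, log2 fold changes ranged from -0.17 to 0.26 for *Ifih1*, -0.10 to 0.20 for *Ddx58*, -0.33 to 0.17 for *Tnfsf10*, -0.18 to 0.040 for *Irf3*, -0.14 to 0.010 for *Mavs* and -0.015 to 0.27 for *Ifitm3*.

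At an unadjusted p under 0.05, 3 members were lower with total counts (*Ifnar1*, *Irf1* and *Psmb8*), and 1 of the other listed pathway genes was called. With that scaling the median log2 fold change over all tested probes was -0.05, against 0.01 in the main fit. With the methods' t-test 1 member was lower (*Irf1*), and 1 after background subtraction (*Irf8*). With no filter 1 was higher (*Zbp1*). With single mice left out the number ranged from 0 to 1 in each direction, *Cd74* lower without WT replicate 2 and *Ifitm2* higher without WT replicate 3. The shares of all probes under 0.05 in these fits are not given here, so these counts are not read as results about the members. Over all probes, 5 were called at an adjusted p under 0.05, against 3 at a minimum mean of 50 raw counts, 0 with the methods' t-test, and 2 to 11 with single mice left out (2 without KO replicate 3 or WT replicate 1, 3 without KO replicate 1, 10 without KO replicate 2 and 11 without WT replicate 3). That minimum of 50 left 10 of the 16 members, by its construction. Same-numbered KO and WT mice did not deviate together (correlations of -0.06, -0.08 and 0.10). With the replicate number as a block 3 probes were called, and none of the members. Mean raw counts under 50 limit the other 6, and for members under the minimum, *Zbp1* among them, an order between genotypes rests on few counts.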
